A study of Rattus norvegicus with 12 samples.

Results

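The miRNAs described here come from the imprinted Dlk1-Dio3 domain of rat chromosome 6. They were chosen by name, from a fixed list of the domain's hairpins, among the names of a small RNA count table, with a summed count of at least 10 over 6 libraries. The rule took 82 mature names of 1503 in the table, which holds 669 known and 834 predicted names. The 82 names belong to 44 hairpins, and both arms of 38 hairpins are among them.

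Hippocampus was taken from male rats kept for 4 weeks in normoxia (control) or in chronic intermittent hypoxia (CIH), a model in which oxygen falls and recovers in repeated cycles. Each group has 3 small RNA libraries and 3 RNA libraries, and the groups differ, per the labels, in the treatment alone. The labels give no strain or age, and leave unsaid whether each library stands for its own animal. The p-values therefore reflect only how far these libraries vary, which may be technical. Small RNA totals were 4681163 to 4914232 counts and RNA totals 17170943 to 21941173 estimated counts per library, and no library pair agreed within sampling noise.

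The Dlk1-Dio3 domain is expressed by parent of origin. The paternal chromosome expresses the protein-coding genes Dlk1, Rtl1 and Dio3, and the maternal chromosome expresses a long run of noncoding transcripts (Meg3, the antisense RNA of Rtl1, Rian and Mirg) that carry the miRNA hairpins. The miRNAs are abundant in brain, where the large distal cluster is known to be transcribed in response to neuronal activity through MEF2 factors. Members of this cluster, miR-134 among them, act in dendrites and on spine size, and the miRNAs antisense to Rtl1 direct the cleavage of its transcript.

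All 82 names map to chromosome 6 in the RefSeq annotation of GRCr8. The deposited values were made on the older build Rnor_6.0, so only the chromosome, the strand and the order are used. They fall in 2 blocks. The proximal block runs from miR-673 to miR-370 beside Meg3 and Rtl1 and holds 20 names from 11 hairpins. The distal block runs from miR-379 to miR-410 and holds 62 names from 33 hairpins. The plus strand carries 80 names, and miR-299b-5p and miR-409b lie on the minus strand.

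Mature sequences from RefSeq (GRCr8) were found for 80 of the 82 names. The sequences of the 8 most abundant names are shown first, because they hold most of the counts. They are written 5′ to 3′, with the seed, bases 2 to 8, in capitals.

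miR-127-3p: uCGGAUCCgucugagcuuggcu
miR-376a-3p: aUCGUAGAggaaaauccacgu
miR-379-5p: uGGUAGACuauggaacguagg
miR-434-3p: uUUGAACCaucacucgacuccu
miR-487b-3p: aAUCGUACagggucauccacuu
miR-411-5p: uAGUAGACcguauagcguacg
miR-433-3p: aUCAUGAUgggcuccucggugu
miR-380-3p: uAUGUAGUaugguccacaucu

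The second set holds the 8 names with the smallest p-value for CIH against control. Of these, miR-433-3p and miR-379-5p are already shown above. The members miR-540-5p and miR-410-5p are among the less abundant names.

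miR-300-5p: uUGAAGAGagguuauccuuugu
miR-495: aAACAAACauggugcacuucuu
miR-668: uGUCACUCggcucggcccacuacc
miR-410-5p: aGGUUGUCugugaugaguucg
miR-540-5p: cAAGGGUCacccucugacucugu
miR-431: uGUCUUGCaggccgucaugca

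The third set holds 3 other members and 4 names outside the set, because the counts of each pair changed places from library to library. Each name outside the set lies on the opposite strand of a member (miR-3543 of miR-434-3p, shown above, then miR-3578, miR-3576 and miR-3592 of the members printed before them).

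miR-3543: cAGGAGUCgagugaugguucaaa
miR-369-5p: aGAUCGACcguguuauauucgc
miR-3578: gCGAAUAUaacacggucgaucu
miR-539-5p: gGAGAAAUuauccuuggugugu
miR-3576: aCACACCAaggauaauuucucc
miR-382-3p: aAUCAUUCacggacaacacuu
miR-3592: aAGUGUUGuccgugaaugauu

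The domain's miRNAs seldom share a seed, and only 4 seeds occurred in more than 1 member. The seed GGUUGUC occurred in miR-494-5p, miR-496-5p and miR-410-5p. The seed AUACAAG occurred in miR-381-3p and miR-539-3p, GGUUUAC in miR-299a-5p and miR-299b-5p, and UGGAUAU in miR-376c-5p and miR-376b-5p. The members of these families not yet printed are as follows.

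miR-494-5p: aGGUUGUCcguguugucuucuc
miR-496-5p: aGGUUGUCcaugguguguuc
miR-381-3p: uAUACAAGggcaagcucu
miR-539-3p: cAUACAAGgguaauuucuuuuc
miR-299a-5p: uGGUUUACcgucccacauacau
miR-299b-5p: cGGUUUACcgucccacauac
miR-376c-5p: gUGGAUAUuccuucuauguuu
miR-376b-5p: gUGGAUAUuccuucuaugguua

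Another 4 members shared a seed with a known name outside the set: miR-329-3p with miR-362-3p, miR-370-5p with miR-1193-3p, miR-410-3p with miR-344b-1-3p, and miR-377-5p with miR-672-5p. The first base was A in 42.5% of the 80 members with a sequence and in 29.3% of 522 other known names. The first base was U in 32.5% of the members and 35.6% of the others, and the median length was 22 bases in both. No test was made of these differences. Members whose sequences differ by few bases, such as miR-376a-3p and miR-376b-3p (3 differences) or miR-379-3p and miR-411-3p (3 differences), may share reads, and their separate counts are uncertain to that extent.

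Levels are given as CPM, the read count scaled to a library total of 1e+06 after edgeR's TMM adjustment. Mature names have nearly the same length, so no length scaling was made. Capture and ligation of small RNAs are known to vary with sequence, so ranks and arm shares describe reads and not molecules. The members' mean levels over the 6 libraries ran from 1.04 to 18279 CPM. All 82 names averaged at least 1 CPM, 69 at least 10 CPM, 51 at least 100 CPM and 22 at least 1000 CPM. Of those 22, 5 belong to the proximal and 17 to the distal block. Every name of the 4 shared-seed families was below 1000 CPM. The 8 most abundant names together held 51.6% to 59.7% of all member counts in a library.

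miR-127-3p, which is antisense to Rtl1, was the most abundant member and ranked 9 among all names of the table. It stood at 14805, 18799 and 19855 CPM in controls 1, 2 and 3 and at 18201, 19772 and 18241 CPM in CIH 1, 2 and 3. The groups overlapped, and control 1 was lowest. The log2 fold change, CIH over control, was 0.07 with a standard error (SE) of 0.13.

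miR-376a-3p, of a family known as a substrate of RNA editing in the seed, stood at 5843, 9424 and 11376 CPM in the controls and 9447, 8783 and 10495 CPM in CIH. The log2 fold change was 0.11 (SE 0.24), and the groups overlapped, with control 1 lowest. miR-411-5p, which was also lowest in control 1, stood at 3512, 5545 and 7184 CPM in the controls and 6390, 4765 and 6079 CPM in CIH, with 0.09 (SE 0.27) as its log2 fold change. miR-380-3p stood at 2780, 4587 and 5192 CPM in the controls and 4203, 3347 and 4046 CPM in CIH, with -0.12 (SE 0.26). In each of these 3 names the control libraries alone spanned more than the distance between the group means.

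miR-487b-3p varied little among the libraries. It stood at 5836, 5598 and 6172 CPM in the controls and 5089, 5447 and 6382 CPM in CIH. Its log2 fold change was -0.06 (SE 0.15), and the CIH libraries held both the lowest and the highest value.

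miR-379-5p, the first hairpin of the distal block, stood at 7930, 8516 and 8430 CPM in the controls and 7397, 6723 and 7480 CPM in CIH. All 3 CIH libraries were below all 3 controls, with a log2 fold change of -0.20 (SE 0.12). miR-433-3p, of the proximal block and antisense to Rtl1, stood at 4504, 6935 and 5320 CPM in the controls and 4494, 4462 and 4206 CPM in CIH. Here too the groups did not overlap, but control 1 and CIH 1 were nearly equal. The log2 fold change was -0.35 (SE 0.19), and -0.17 without control 2.

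No member passed the test for CIH against control. edgeR's quasi-likelihood test with Benjamini-Hochberg adjustment over the 715 names that passed the filter on low counts called 0 of 80 tested members at a threshold of 0.05, and 0% of all 715 names. The 2 members that did not pass the filter were miR-541-3p and miR-487b-5p. At an unadjusted p below 0.05 there were 0 members, against 2.52% of all names. DESeq2 called 0 members and 0.134% of all names. The adjusted p of the members in edgeR's quasi-likelihood test lay between 0.979 and 0.996. The fold changes were small: 62 of the 80 lay within 0.5 log2 units of 0, and so did 517 of all 715 names. The median SE of the members was 0.35.

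The direction was uneven. Of the 80 tested members, 57 were on the lower side in CIH and 23 on the higher side, with a median log2 fold change of -0.15. Over all 715 names the median was 0.01, and 50.6% were on the higher side. The 51 members averaging at least 100 CPM had a median of -0.16, and the 289 known names at that level had a median of -0.02. The members share one transcribed domain and the same libraries, so their count is not a count of independent values, and this shift is a description.

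The 2 blocks were not alike in this description. In the proximal block 10 of 20 names were on the higher side and the median was 0.02. In the distal block 13 of 60 tested names were on the higher side and the median was -0.17. The difference between the blocks was not tested.

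The direction of single members depended on which libraries were kept. Leaving out each library in turn, 28 of the 80 were on the lower side and 11 on the higher side in every case. Without control 1, 63 members were on the lower side, without control 3 it was 46, and without CIH 3 it was 49. The median over the members ran from -0.22 to -0.06 over these cases.

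**Figure D1:**
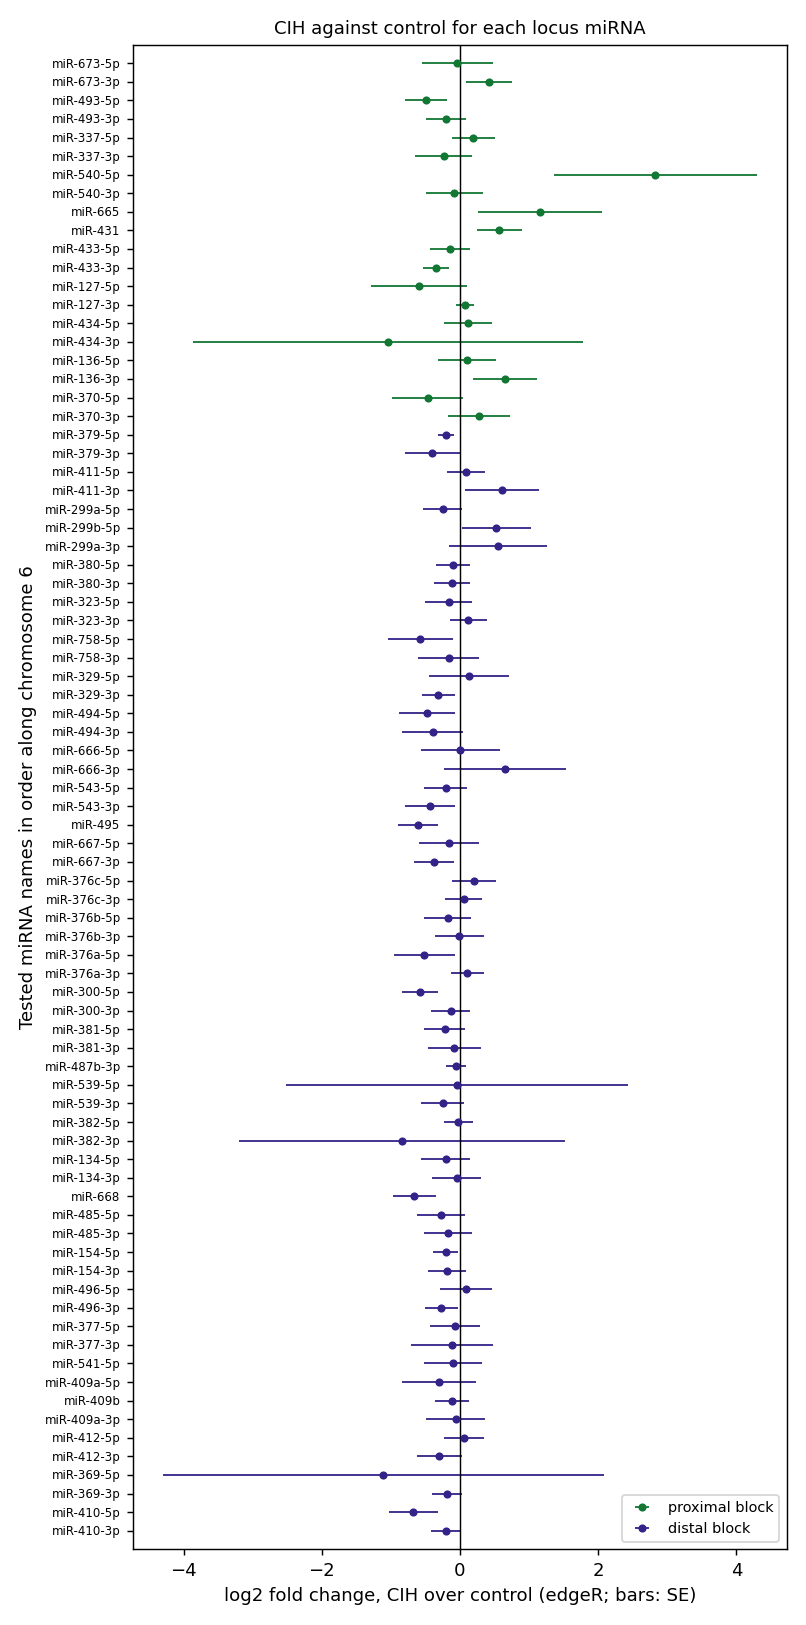
Log2 fold change, CIH over control, for each of the 80 tested members in their order along chromosome 6. The proximal and distal blocks have separate colours, and bars show the SE derived from edgeR's test statistic. The points of the distal block lie mostly left of 0 (47 of 60), and the 4 members whose counts changed places with an opposite-strand name have the longest bars.

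The groups did not overlap in 3 members, all lower in CIH: miR-379-5p, miR-433-3p and miR-300-5p. That is 3.75% of the 80, against 7.69% of all 715 names, of which 3.5% were lower and 4.2% higher. In the lower direction alone, 3.75% of the members stood against 3.5% of all names. Among names averaging at least 100 CPM, 5.88% did not overlap, both of the 51 members and of the 289 known names.

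miR-300-5p had the smallest p of the members. It stood at 150.8, 197.1 and 175.9 CPM in the controls and 118.6, 125.4 and 105.7 CPM in CIH. Every CIH library was below every control, and the log2 fold change of -0.58 (SE 0.26) gave an adjusted p of 0.979 in edgeR's quasi-likelihood test. The other arm of its hairpin, miR-300-3p, was far more abundant and had a log2 fold change of -0.13 (SE 0.28).

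miR-495, a distal name, stood at 2641, 3948 and 4356 CPM in the controls and 2421, 3038 and 1726 CPM in CIH. CIH 3 was lowest and CIH 2 lay inside the control range, with a log2 fold change of -0.61 (SE 0.29). miR-668 stood at 318.7, 455.4 and 259.1 CPM in the controls and 193.9, 260.0 and 200.1 CPM in CIH. Only control 3 and CIH 2, which were nearly equal, crossed, and the log2 fold change was -0.66 (SE 0.31).

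miR-410-5p, the minor arm of the last hairpin of the distal block, stood at 18.2, 29.1 and 37.8 CPM in the controls and 16.7, 18.5 and 18.1 CPM in CIH. Control 1 lay within the narrow CIH range, and the log2 fold change was -0.68 (SE 0.36). Its major arm, miR-410-3p, had a log2 fold change of -0.20 (SE 0.22).

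On the higher side, miR-431, which is antisense to Rtl1, stood at 470.5, 599.0 and 953.1 CPM in the controls and 1003, 904.1 and 1098 CPM in CIH. The CIH libraries were above controls 1 and 2, and control 3 lay between CIH 2 and CIH 1. The log2 fold change was 0.57 (SE 0.32). miR-540-5p had the highest fold change of the members, 2.83 on the log2 scale with an SE of 1.47. Its counts were 5, 6 and 44 in the controls and 347, 9 and 51 in CIH, so CIH 1 alone set the size of this change, and leaving out a library moved it between 0.73 and 4.52.

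The members antisense to Rtl1 or next to it did not move one way. Beside miR-127-3p, miR-433-3p and miR-431, miR-136-5p had a log2 fold change of 0.10 (SE 0.42), miR-136-3p of 0.65 (SE 0.46) and miR-434-5p of 0.11 (SE 0.35). miR-134-5p, which is known to limit dendritic spine size by repressing Limk1, stood at 469.5, 651.1 and 919.2 CPM in the controls and 543.9, 765.9 and 457.6 CPM in CIH. Its groups overlapped, with a log2 fold change of -0.21 (SE 0.35). The names in this paragraph that the naming rule did not take were picked for their known roles after their values were seen.

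How far a member varied among libraries differed widely. The highest library was under 2 times the lowest in 35 members, 2 to 10 times in 40, and above 10 times in 7. Those 7 were miR-540-5p, miR-665, miR-666-3p and the 4 members with an opposite-strand name that are described next.

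Hairpin DNA of this domain is annotated on both strands in places, so that a mature name on the plus strand can have a named miRNA on the minus strand with nearly the reverse-complement sequence. Over the 602 known names with a RefSeq mature sequence, 40 pairs overlapped on opposite strands by 18 bases or more. Of these pairs, 8 hold a member. In 4 of the 8, the counts stood almost wholly under a different name in different libraries. The sequences printed above show each pair to be reverse complements over 21 or 22 bases.

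miR-434-3p had 119, 72623 and 65846 counts in the controls and 362, 63432 and 159 counts in CIH. Its opposite-strand name miR-3543 had 47449, 268 and 39 counts in the controls and 63177, 531 and 54841 counts in CIH. In every library the lesser name of the pair had no more than 531 counts and the greater name at least 47449. As a single name miR-434-3p had a log2 fold change of -1.04 with an SE of 2.82, which moved between -7.50 and -0.48 as libraries were left out, and the sum of both names had one of -0.06 with an SE of 0.17.

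miR-369-5p had 23976, 37223 and 22 counts in the controls and 29955, 28 and 20 counts in CIH. miR-3578 had 19, 42 and 32669 counts in the controls and 8, 32686 and 26748 counts in CIH. The libraries that changed name were not those of miR-434-3p: control 3 and CIH 2 held miR-434-3p but miR-3578. miR-369-5p had the lowest fold change of the members, -1.11 on the log2 scale (SE 3.19), which moved between -9.73 and -0.39 as libraries were left out, and the summed pair had -0.10 (SE 0.19).

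miR-539-5p had 3308, 18 and 5575 counts in the controls and 3511, 5107 and 2 counts in CIH, against 10, 5017 and 31 and then 39, 29 and 2343 for miR-3576. miR-382-3p had 293, 6 and 739 counts in the controls and 602, 3 and 4 in CIH, against 3, 615 and 2 and then 8, 403 and 348 for miR-3592. The summed pairs had log2 fold changes of -0.36 (SE 0.37) and -0.31 (SE 0.40). In every library of all 4 pairs, the share of the pair's counts under the opposite-strand name was at most 1.31% or at least 98.9%.

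In each of the 4 pairs, both names led in at least 1 library of each group. The same was seen outside the domain: of the 37 pairs in the table with at least 100 counts, 9 had a library under 10% and a library above 90%, and 5 of those 9 hold no member. How reads were assigned to a strand or name is not stated, and the part of that step in these counts was not tested.

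The other 4 pairs kept their order in every library. miR-409b, on the minus strand, held most of the counts of its pair, with 7186, 6443 and 7276 counts in the controls and 5397, 7504 and 6382 in CIH, while miR-409a-3p had between 128 and 356. miR-376a-3p far exceeded miR-3595, miR-337-5p far exceeded miR-3544, and miR-299a-3p exceeded miR-299b-5p in each library. With both names of each pair summed before the fit, edgeR called 0 of 682 names. The members' median was then -0.18, and 21 of 78 were on the higher side.

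**Figure D2:**
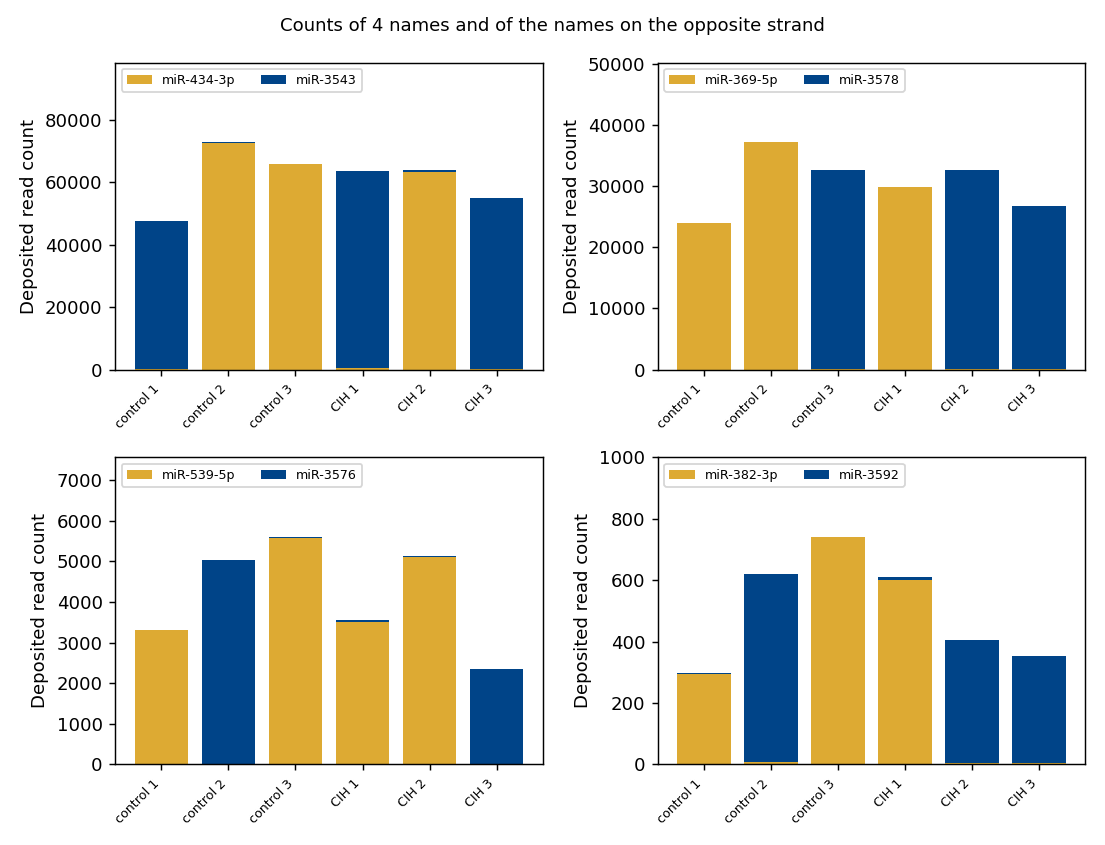
Deposited read counts of 4 members (yellow) and of the name on the opposite strand (blue), stacked, in each of the 3 control and 3 CIH small RNA libraries. Each bar is almost wholly of a single colour, the colour changes between libraries within both groups, and the stacked height varies far less than either name.

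Which arm of a hairpin held the counts was a stable property of most members. A hairpin yields a 5p and a 3p strand, of which usually a single strand is kept in the silencing complex. Opposite-strand names were left out of this count. Of the 38 hairpins with both arms, the 5p name led in every library in 15, the 3p name led in every library in 20, and the lead changed in 3. The 5p name held more than 90% in every library in 9 hairpins, and the 3p name in 14. The 5p share ranged over less than 10 percentage points among the libraries in 25 hairpins.

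Of the 4 hairpins with the most counts, miR-127 had a 5p share of 0.43% to 2.2% and miR-376a one of 0.012% to 0.037%. The hairpin of miR-379 had a 5p share of 94.8% to 97.7%. The miR-434 hairpin was the exception, with a 5p share of 97.3%, 9.74% and 11.9% in the controls and 95.9%, 12.4% and 97.1% in CIH. With the opposite-strand name added to the 3p arm, its 5p share was 8.32% to 12.3% over the 6 libraries. The same addition was made, to the arm each opposite-strand name faces, for the other hairpins whose lead had changed. It gave a 5p share of 66.2% to 74.4% for miR-369 and of 85.9% to 91.6% for miR-539. It was not made for miR-409a, where the 5p name led in every library. There miR-409b, which faces the 3p arm, had 5397 to 7504 counts, against 266 to 1087 for miR-409a-5p. The lead of miR-409a-5p therefore holds only with miR-409b left out.

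Hairpins for which no opposite-strand name was found could vary too. For miR-136 only the 3p arm was searched, because no RefSeq mature sequence was found for miR-136-5p. The 5p share of miR-136 was 26.3%, 45.6% and 21.4% in the controls and 15.0%, 39.9% and 16.3% in CIH. That of miR-666 was 39.3% in control 2 and 5.57% to 11.1% in the other libraries, and that of miR-540 was 31.9% in CIH 1 and 0.60% to 8.07% in the others. The groups overlapped in all 3. These hairpins were chosen for their range after it was seen.

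All members together took 8.76%, 13.17% and 12.96% of the small RNA counts in the controls and 10.7%, 10.9% and 9.54% in CIH. The means were 11.6% ± 2.49 (SD, n = 3) in the controls and 10.4% ± 0.76 (SD, n = 3) in CIH, and control 1 was below every CIH library. The difference of -1.23 percentage points was smaller than the spread among controls. It became -2.66 points without control 1 and -0.46 points without control 2. With the opposite-strand names added, the shares were 9.79%, 13.3% and 13.7% in the controls and 12.1%, 11.7% and 11.3% in CIH, and the group means were 12.3% ± 2.16 and 11.7% ± 0.38 (SD, n = 3).

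The proximal block took 3.97% ± 1.40 (SD, n = 3) of the counts in the controls and 3.57% ± 0.79 (SD, n = 3) in CIH. With opposite-strand names it took 4.31% ± 0.81 and 4.38% ± 0.24 (SD, n = 3). The distal block took 7.66% ± 1.09 in the controls and 6.83% ± 0.56 in CIH (SD, n = 3), and 7.97% ± 1.36 and 7.33% ± 0.19 (SD, n = 3) with opposite-strand names. In bulk tissue, fewer cells of a type and less RNA per cell cannot be told apart in any of these values.

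Members deviated together by library. Each member's log2 CPM was set against its own mean over the 6 libraries, and the median of these deviations over the 80 tested members was taken in each library. It was -0.20 in control 1, 0.14 in control 2 and 0.28 in control 3, and -0.05, 0.05 and -0.18 in CIH 1, 2 and 3. The highest of a member's 6 values was in control 3 for 28 members, or 35% of them, while control 3 held the highest value of 14.8% of the other names. The lowest was in control 1 for 29 members (36.25%) and in CIH 3 for 25 (31.25%). Among the other names, control 1 held the lowest value of 13.5% and CIH 3 of 15.4%. The controls thus held both the highest and the lowest library of the set. The proximal block was lower still in control 1, with a median of -0.64 and 14 of its 20 names lowest there.

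**Figure D3:**
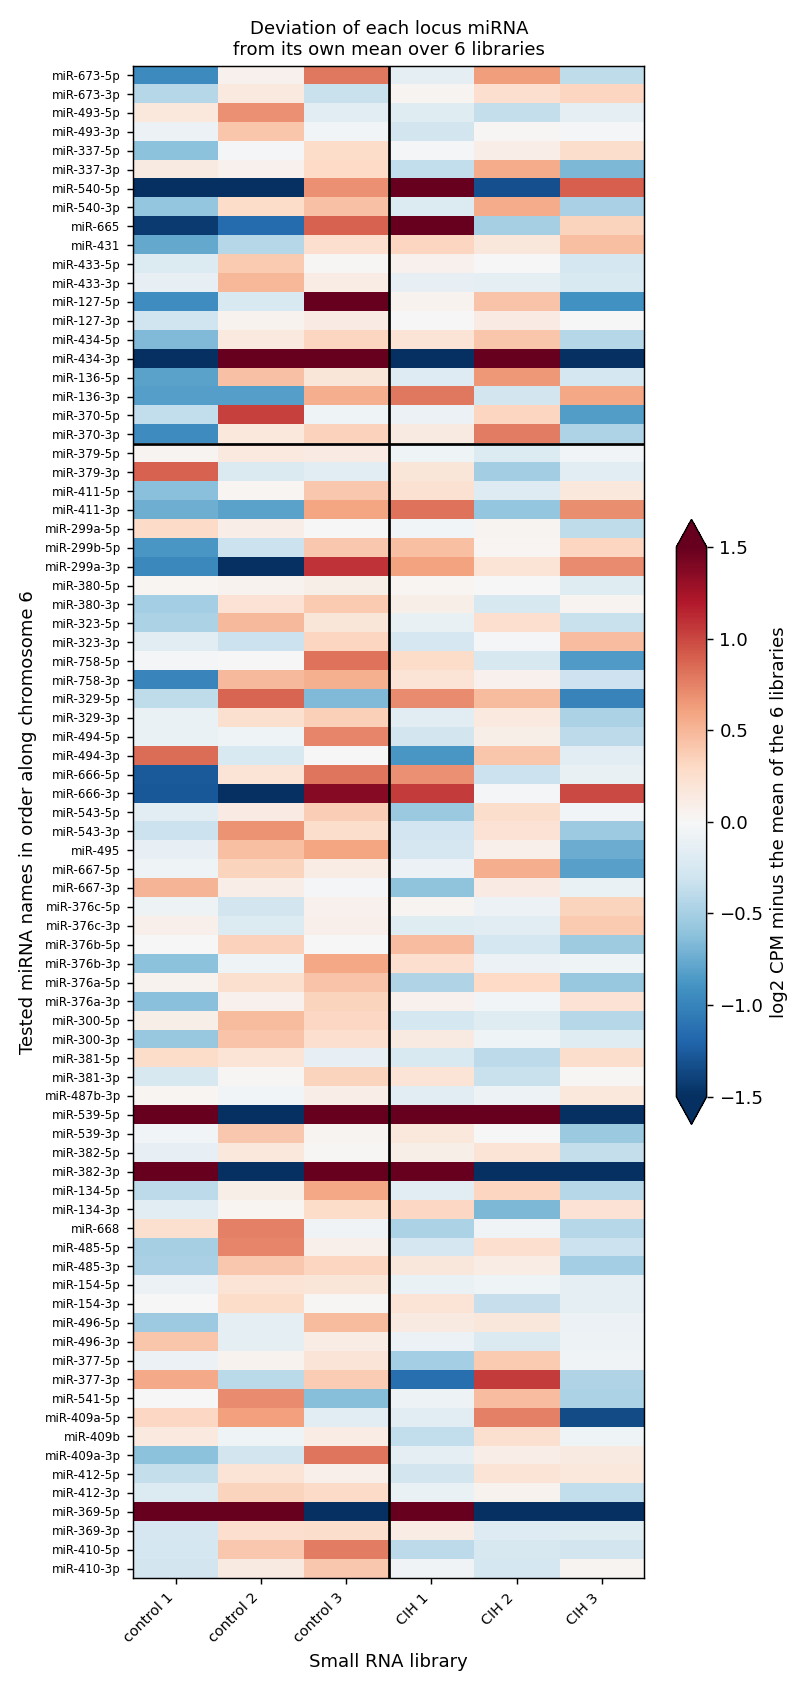
Deviation of each tested member from its own mean over the 6 small RNA libraries, in log2 CPM, with names in order along chromosome 6 and libraries in columns. Control 1 and CIH 3 are mostly blue (below the mean, medians -0.20 and -0.18) and control 3 mostly red (median 0.28), and the 4 members that change places with an opposite-strand name show as rows of saturated colour.

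The long RNAs of the same domain were read in the RNA libraries, where 8 of 11 listed genes were measured and all 8 were tested. edgeR's quasi-likelihood test called 0 of the 8, and 0% of all 17935 genes tested, with an adjusted p of 1.00 for each of the 8. At an unadjusted p below 0.05 there were 2 of the 8, against 1.74% of all genes. DESeq2 called 0 of the 8 and 0.0372% of all genes. No source used here states whether counting used strand, so reads of Rtl1 and of its antisense RNA cannot be told apart.

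Meg3, the maternally expressed noncoding RNA at the start of the miRNA-bearing region, stood at 2741, 5989 and 4367 CPM in the RNA controls and 5967, 3744 and 2978 CPM in CIH. The groups overlapped fully, with a log2 fold change of -0.05 (SE 0.36). Control 1 and CIH 3 were its lowest libraries, and the libraries with those names were also the lowest in the miRNA share with opposite-strand names in their groups. Whether RNA and small RNA libraries of the same number came from the same animal is not stated. On the authors' length-scaled TPM, Meg3 was listed at 2948 to 6621 and Rtl1 at 0.08 to 0.19.

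Dlk1, which encodes a ligand-like membrane protein related to Notch ligands, was low in all libraries. It stood at 1.19, 9.07 and 6.62 CPM in the controls and 0.84, 1.56 and 0.15 CPM in CIH, from 3 to 182 counts. Controls 2 and 3 were high, and control 1 lay inside the CIH range. The log2 fold change was -2.71 (SE 0.92).

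Dio3, which encodes the deiodinase that inactivates thyroid hormone, had the same order of high and low groups. It stood at 0.45, 3.34 and 2.73 CPM in the controls and 0.28, 0.57 and 0.15 CPM in CIH, from 3 to 67 counts, with a log2 fold change of -2.67 (SE 0.82). Again control 1 lay inside the CIH range. Dlk1 and Dio3 were the 2 genes of the list with an unadjusted p below 0.05.

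Rtl1, a retrotransposon-derived gene needed in placenta and muscle, had 8 to 20 counts and a log2 fold change of -0.42 (SE 0.37). The flanking genes differed little. Wdr25, a WD-repeat gene, stood at 8.29, 8.97 and 8.33 CPM in the controls and 6.44, 7.77 and 6.67 CPM in CIH. Its groups did not overlap, as in 5.7% of all genes tested, and the log2 fold change was -0.29 (SE 0.15). Begain, which encodes a postsynaptic protein, had a log2 fold change of 0.00 (SE 0.17), Ppp2r5c, a phosphatase regulatory subunit, 0.15 (SE 0.11), and Dync1h1, the dynein heavy chain, 0.03 (SE 0.13).

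Genes imprinted elsewhere in the genome were read from a list of 34, of which 32 were measured and 29 tested. edgeR called 0, with 5 on the higher side, 24 on the lower side and a median log2 fold change of -0.11, against 0.00 over all genes. The 3 with the smallest p were Peg10, a retrotransposon-derived gene (-0.51, SE 0.22), Slc38a4, an amino acid transporter (-1.70, SE 1.05), and Zdbf2, a paternally expressed gene (-0.24, SE 0.15). The groups did not overlap in Peg10 alone, with CIH lower, as in 2.65% of all genes. Nnat and Plagl1, picked after their values were seen, were lowest in the same libraries as Meg3. Nnat stood at 77.1, 635 and 525 CPM in the controls and 408.5, 381.5 and 79.0 CPM in CIH, and Plagl1 at 1.09, 70.8 and 44.6 and then 34.2, 20.7 and 1.82 CPM.

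Genes that make and use miRNAs differed by little. Of 24 listed, all were measured and 23 tested. edgeR called 0, with 14 on the higher and 9 on the lower side and a median of 0.05. The smallest p-values belonged to Tut7, a terminal uridylyltransferase (0.18, SE 0.09), Ran, the GTPase of nuclear export (-0.24, SE 0.16), and Dgcr8, the partner of Drosha (0.15, SE 0.12). The groups did not overlap in Tut7, where CIH was higher, as in 3.04% of all genes.

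The list of regulators and targets of the domain held 15 genes, of which 14 were tested. edgeR called 0, with 8 on the higher and 6 on the lower side and a median of 0.05. Zfp57, which binds methylated imprinting control regions, had a log2 fold change of -0.25 (SE 0.13), Dnmt1, the maintenance DNA methyltransferase, of -0.13 (SE 0.09), and Trim28, the corepressor recruited by Zfp57, of -0.16 (SE 0.13). The groups did not overlap in Zfp57 and Dnmt1, both lower in CIH, as in 2.65% of all genes. The reported miR-134 targets Limk1 and Pum2 had log2 fold changes of 0.11 (SE 0.16) and 0.04 (SE 0.11), and Mef2c had 0.49 (SE 0.43). Limk1, Pum2 and Mef2c were named after their values were seen.

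Some other values, from several cell type lists, moved with the libraries in which the members were low, and some did not. The 5 markers of hippocampal fields, all measured, summed to 632 to 1766 CPM in the RNA controls and 752 to 1554 CPM in CIH. In the RNA libraries, Prox1, a marker of dentate granule cells, stood at 419, 108 and 184 CPM in the controls and 28.8, 156 and 360 CPM in CIH. Mbp, a marker of oligodendrocytes, stood at 3404, 1377 and 1285 CPM in the controls and 2409, 2390 and 3485 CPM in CIH. Both were highest in control 1 and CIH 3 within their groups. Prox1 falls outside the naming rule and was picked after its values were seen. Among the 5 field markers, only Neurod6 was not highest in CIH 3 within its group, with 67.7, 135 and 114 CPM in CIH 1, 2 and 3.

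The small RNA libraries showed the same for the summed level of the 3 oligodendrocyte miRNAs. It was 13521, 8357 and 8065 CPM in the controls and 9531, 11710 and 15586 CPM in CIH. Taken singly, each name was highest in CIH 3 within its group. Among the controls, miR-219a-2-3p and miR-338-3p were highest in control 1. miR-219a-5p was highest in control 3, with 1585, 1475 and 2144 CPM in controls 1, 2 and 3. The oligodendrocyte RNA markers (3 of 3 measured) summed to 2221 to 5380 CPM in the controls and 3602 to 5546 CPM in CIH. The 5 miRNAs of choroid plexus and cilia also summed highest in control 1 (15368 CPM) and CIH 3 (11582 CPM) within their groups. So did the 3 choroid plexus RNA markers, at 16.8 and 17.1 CPM, and the 3 blood miRNAs, at 1527 and 2202 CPM. The 3 astrocyte RNA markers summed highest in control 1 (2078 CPM) and CIH 2 (1797 CPM). The 2 blood RNA markers summed highest in control 1 (14.4 CPM) and CIH 1 (20.8 CPM). The 4 neuronal miRNAs summed to 57700 to 60138 CPM in the controls and 64378 to 67333 CPM in CIH. The sum did not overlap between the groups, although each of the 4 names overlapped when taken singly. The share of single names without overlap, 7.69%, is no background for a sum. On the higher side were 2 of the 4. The log2 fold change was 0.80 for miR-124-3p (SE 0.33), 0.19 for miR-128-3p (SE 0.12), -0.07 for miR-9a-5p (SE 0.11) and -0.0088 for miR-138-5p (SE 0.14). The 5 neuronal RNA markers summed to 3397 to 4079 CPM in the controls and 3234 to 4381 CPM in CIH. The 3 vessel RNA markers summed to 122 to 129 CPM in the controls and 139 to 177 CPM in CIH, with all 3 on the higher side. The 3 microglia RNA markers summed to 35.1 to 38.6 CPM and 39.2 to 45.5 CPM, also with all 3 higher. Neither sum overlapped between the groups. The share of single genes without overlap, 5.7%, is no background for a sum. Taken singly, 2 of the 3 vessel genes and none of the microglia genes were without overlap. The 4 vessel miRNAs summed to 21809 to 25004 CPM in the controls and 23713 to 29410 CPM in CIH. The 3 microglia miRNAs summed to 69.4 to 95.4 CPM and 84.3 to 96.3 CPM. Both miRNA sums overlapped between the groups. miR-7a-5p and miR-375-3p, which are abundant in pituitary, summed to 12157 to 18126 CPM in the controls and 9001 to 15360 CPM in CIH, with overlap. edgeR called 0 names of each of these lists. The hypothalamic markers Avp and Oxt together reached no more than 0.75 CPM in any library. The part of tissue makeup in the members' levels was not tested.

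**Figure D4:**
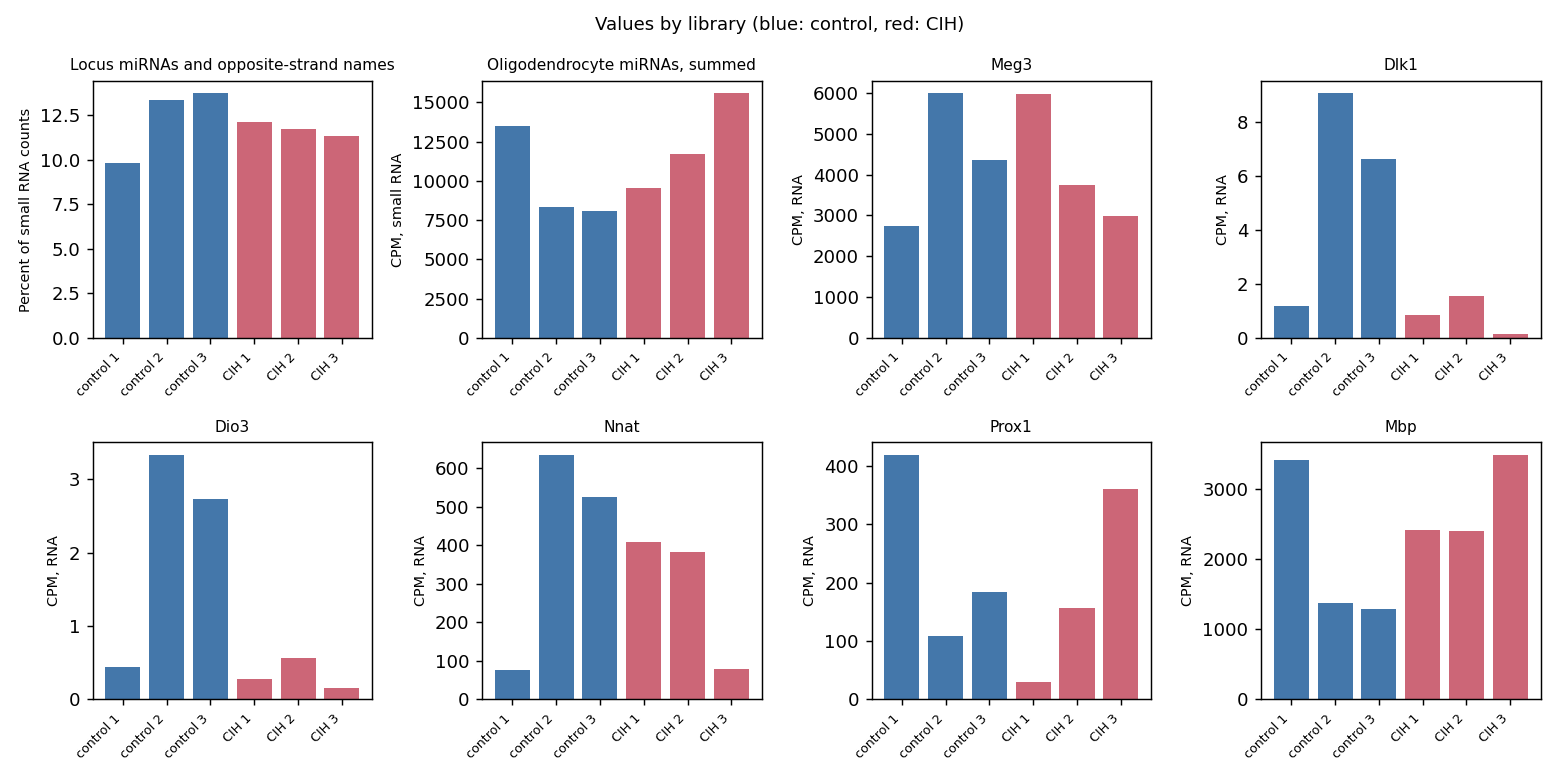
Values in each library (bars; controls blue, CIH red): the share of small RNA counts held by the members with their opposite-strand names, the summed CPM of oligodendrocyte miRNAs, and the CPM of Meg3, Dlk1, Dio3, Nnat, Prox1 and Mbp in the RNA libraries. Control 1 and CIH 3 are the low libraries of Meg3 and Nnat and the high ones, within their groups, of Prox1, Mbp and the summed oligodendrocyte miRNAs.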

How the data were processed

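Small RNA and RNA libraries of rat hippocampus (3 control and 3 CIH each) were grouped by their titles. The small RNA table holds whole-number counts per the file headers, and the authors' normalized value, an RPM-type unit equal to the count divided by 17.3 to 18.4 depending on the library, which served an alternative test only. The deposited RNA table holds estimated counts, of which 16.0% are not whole and which were rounded, the authors' TPM (an alternative test and 1 stated level), and the authors' FPKM (not used). Per the submitters' processing notes, without roles or order, the tools were HISAT2 2.2.0, Bowtie2 2.2.5 and RSEM 1.2.12 and the build was Rnor_6.0. Annotation, strand use and molecular identifiers were not given in the sources used here. In the small RNA table, predicted names held 1.09% of the counts.

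Each table was tested whole with edgeR 4.0.16 (robust quasi-likelihood test, TMM, filterByExpr) under R 4.3.3. The SE beside edgeR's log2 fold changes was taken as their absolute value divided by the square root of the test's F statistic. P-values were adjusted by Benjamini-Hochberg, and 0.05 was the threshold. Alternatives used DESeq2 1.42.0, limma 3.58.1 on log2(authors' value + 1 or 0.1), other normalizations, no filter, summed arms, a replicate block and each library left out. Summing opposite-strand names and the fit without the robust option were chosen after seeing the data. The fits were checked on simulated counts with a fixed spread and with changes larger than most seen here. That check does not show whether changes as small as the members' could be found. Seeds and strand overlaps came from the RefSeq table (GRCr8), where Meg3 was matched by its gene ID. Rian, Mirg, Wars, Kcnq1ot1, Peg13, Prl and Gh1 are not analysed here. Figures were drawn with matplotlib 3.10.9.

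Named members were the 8 most abundant, the 8 with the smallest p, the highest and lowest fold change, seed families of 2 or more members, the 4 hairpins with the most counts, all locus genes, and up to 3 genes per other list. miR-300-3p and miR-410-3p were added as the other arms of named members, and opposite-strand pairs for the members they hold. Most other exceptions are stated where they occur. The members and lists were chosen with earlier results of these data known.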

Additional observations from a re-analysis of the deposited data

How the results depend on the processing

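The count of members past the threshold was 0 under every alternative run, and so was the count of locus genes. The members' median stayed below 0 throughout (-0.22 to -0.06 with a library left out), and the number on the higher side was 17 to 34 with a library left out. Over all names, edgeR called 0; no filter, DESeq2 and limma with either pseudocount each gave 2, and leaving out a library gave 0 to 2 (1 without control 3 and 2 without CIH 2). The cause was not tested. The difference in share was -2.66 to -0.46 percentage points with a library left out and -0.58 with opposite-strand names.

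The deviations of same-numbered small RNA libraries correlated at 0.12, -0.15 and -0.03, and those of RNA libraries at -0.22, -0.05 and -0.18. Only for small RNA replicate 1 was the correlation highest with its own number. These values cannot show whether libraries of the same number were paired. With the number as a replicate block, edgeR called 0 names and 0 members, with a median of -0.13 and 26 members higher.

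Some named log2 fold changes near 0 turned sign when a library was left out. The range over the libraries left out was -0.024 to 0.11 for miR-127-3p and -0.095 to 0.28 for miR-376a-3p (both negative without control 1), and -0.12 to 0.30 for miR-411-5p (negative without control 1 or CIH 1). It was -0.31 to 0.026 for miR-380-3p (positive without control 3) and -0.15 to 0.0026 for miR-487b-3p (positive without CIH 1). It was -0.38 to 0.25 for Meg3 (positive without control 2, CIH 2 or CIH 3), -0.16 to 0.14 for Begain (positive without control 2 or CIH 1) and -0.048 to 0.064 for Dync1h1 (negative without CIH 2).

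With 3 libraries a group, the SE limits what can be seen: its median was 0.35 log2 units among the members, from 0.12 for miR-379-5p to 3.19 for miR-369-5p. Low names such as miR-540-5p and genes such as Rtl1 rest on few counts.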

Other observations

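The table also lists 18 names that lie in the domain but outside the naming rule, of which 12 are not opposite-strand partners of a member and 10 of those were tested. edgeR called 0 of the 10. miR-6331 had 23, 10 and 13 counts in the controls and 5, 5 and 4 in CIH, with no overlap, a log2 fold change of -1.70 (SE 0.49) and an adjusted p of 0.979 in edgeR's quasi-likelihood test. miR-1193-3p had 560, 558 and 573 counts in the controls and 394, 514 and 468 in CIH, also with no overlap, and a log2 fold change of -0.30 (SE 0.27). Over all names tested, 3.5% were lower in CIH with no overlap. miR-1247-5p, which lies near Dio3, had 45, 183 and 242 counts in the controls and 56, 91 and 31 in CIH (log2 fold change -1.38, SE 0.68), with control 1 inside the CIH range as for Dio3 itself.

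miR-341, a rodent hairpin of the proximal region, had 344, 557 and 4063 counts in the controls and 16916, 1114 and 4369 in CIH. CIH 1 was highest by far, as for miR-540-5p, and the log2 fold change was 2.13 (SE 1.33). miR-770-5p, whose hairpin lies within Meg3, had 830, 1597 and 3915 counts in the controls and 2984, 1939 and 1420 in CIH (log2 fold change -0.0076, SE 0.57). These names were picked after their values were seen.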
